A study of Caenorhabditis elegans with 15 samples.

Results

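The genes described here encode subunits of the 26S proteasome in Caenorhabditis elegans. Members were every gene in the deposited count table whose WormBase identifier carries a symbol starting with pas-, pbs-, rpt- or rpn- and a number, which gave 33 of the 47111 genes. Subunit genes with other symbols would not be among these members. The members comprise 7 alpha-ring genes (pas-1 to pas-7), 7 beta-ring genes (pbs-1 to pbs-7), 6 ATPase genes (rpt-1 to rpt-6) and 13 genes of the non-ATPase subunits (rpn). All 33 are annotated as protein coding and all passed the filter on low counts, which kept 17217 genes for testing. By chromosome, 10 lie on I, 7 on II, 8 on III, 3 on IV and 5 on V.

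The study measured poly(A) RNA from whole young adult worms of 5 genotypes, with 3 libraries each, to compare alleles of puf-8 with control animals. PUF-8 is a Pumilio/FBF-family protein that binds elements in mRNA 3′ UTRs. The mutant genotypes were puf-8(ust221), puf-8(ust222), puf-8(ust223) and puf-8(ok302), a deletion allele, and the control was wild type N2. The labels add the codes MUT-4A, MUT-4N and MUT-8G to the 3 ust alleles, which are not interpreted here. All animals were grown from synchronised larvae at 20 °C on Escherichia coli OP50, with no other treatment in the labels. Separate cultures are not named in the labels for the libraries of 1 genotype, so p-values measure the spread between these libraries, which may be technical. Because whole animals were sequenced, fewer cells of a type and less RNA per cell cannot be told apart.

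The proteasome degrades proteins that carry ubiquitin chains. Its 20S core is a barrel of outer alpha rings and inner beta rings, and the beta subunits PBS-1, PBS-2 and PBS-5 hold the proteolytic sites. The 19S cap binds ubiquitin, removes it and feeds the unfolded protein into the barrel, driven by a ring of ATPases. In C. elegans the transcription factor SKN-1A raises the mRNAs of most subunits together when proteasome capacity is low. Germ cells and early embryos depend on the proteasome for cell division and for the turnover of maternal proteins.

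Libraries held between 20969800 and 29352254 counts, and 0.436 to 0.732% of them fell on the 33 proteasome genes. Counts of puf-8 lay between 737 and 5008 in the ust alleles, were 7, 11 and 3 in ok302, and were 2043, 3899 and 2267 in N2. Levels below are CPM, read counts relative to the size of the library after TMM scaling, listed for replicates 1, 2 and 3. In the main test replicate numbers only name libraries.

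Proteasome transcripts were abundant in every library and, after TMM scaling, lowest in ok302. The summed level of the 33 genes was 7947, 6081 and 5172 CPM in ust221, 5328, 5889 and 5558 CPM in ust222, 6381, 6340.3 and 6205 CPM in ust223, 4153, 3686 and 4027 CPM in ok302 and 5344, 6698 and 8306 CPM in N2. Each of the 3 ok302 libraries lay below each of the other 12 after this scaling. As a share of unscaled counts, ok302 replicate 1 (0.4653%) lay just above ust221 replicate 2 (0.4649%). The N2 libraries spread widely, and the highest of them, replicate 3, lay above every other library. In ust221, replicate 1 was the highest and replicate 3 the lowest, and their range was close to that of N2, while the ust223 libraries lay close together.

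**Figure D1:**
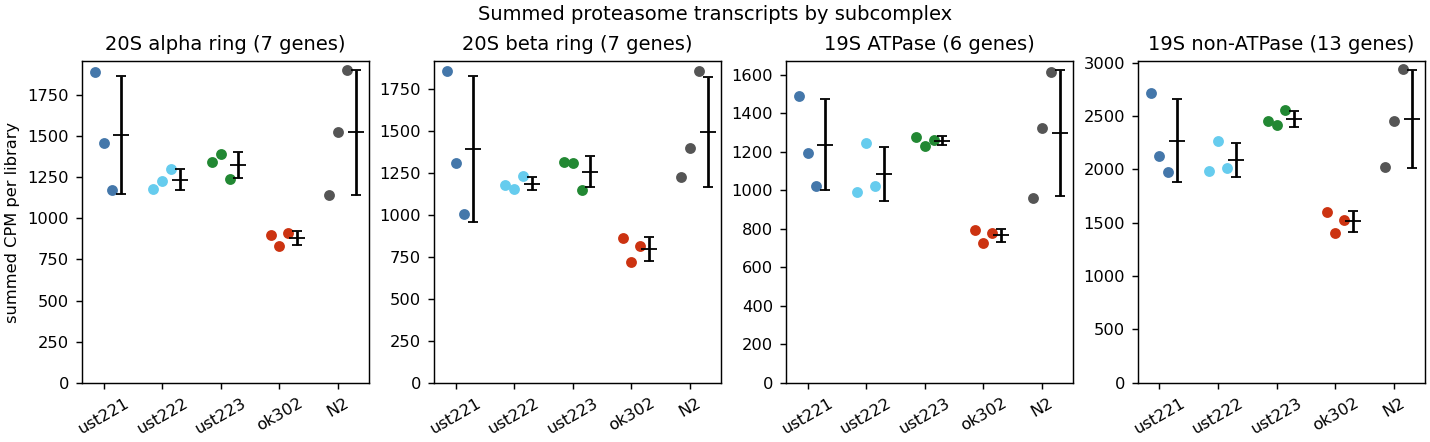
Summed CPM (vertical axes) of the genes of each proteasome subcomplex in ust221, ust222, ust223, ok302 and N2, with 1 point per library and the mean and SD of 3 libraries beside the points. In all 4 subcomplexes the ok302 points lie below every other point; over all 33 genes they reach from 3686 to 4153 CPM, against 5344 to 8306 CPM in N2.

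Per length, the median level of the 20S core genes was above that of the 19S cap genes. In N2 the mean level ranged from 172 to 283 CPM per kilobase of transcript over the alpha-ring genes (median 236), and from 166 to 388 over the beta-ring genes (median 212). The ATPase genes ranged from 116 to 175 CPM per kilobase (median 146). Among the 13 non-ATPase genes the range was 16.7 to 209 CPM per kilobase (median 130), and the lowest value belonged to rpn-6.2. The median gene among all 17217 had 5.86 CPM per kilobase.

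Without rpn-6.2, the other 32 genes spanned 72.6 to 388 CPM per kilobase, a ratio of 5.35 between the highest and the lowest. Between 88.5 and 97.8% of all tested genes lay below each of these 32 in N2. Averaged over the 5 genotypes, pbs-1, pas-3 and pas-5 were the highest in CPM per kilobase, and rpn-6.2, rpn-1 and rpn-2 were the lowest. The N2 level of pbs-1 was 388 ± 84.7 CPM per kilobase (SD, n = 3), and that of pas-3 was 283 ± 64.6. In N2 replicates 1, 2 and 3 pbs-1 stood at 345, 335 and 486 CPM per kilobase and pas-3 at 217, 286 and 346, so pbs-1 was the higher in each library. This order was not tested. At the lower end rpn-2 had 79.6 ± 10.2 CPM per kilobase in N2 and rpn-1 had 72.6 ± 14.4, and the values by library were 72.3, 75.2 and 91.3 for rpn-2 and 62.8, 65.97 and 89.2 for rpn-1, again with the same order in each library. The level of rpn-6.2 was 16.7 ± 7.54. RPN-1 and RPN-2 are the large scaffold subunits at the base of the cap, and RPN-6.2 is a paralog of the lid subunit RPN-6.1.

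**Figure D2:**
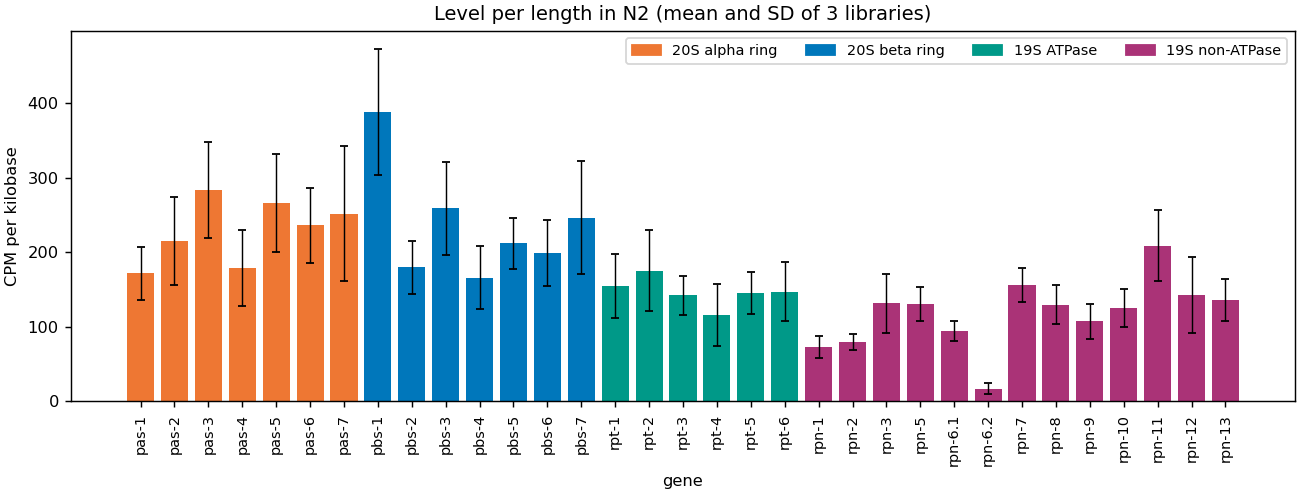
Mean level in N2 in CPM per kilobase (vertical axis) of each of the 33 proteasome genes (horizontal axis), with SD over 3 libraries as error bars and colours for the 4 subcomplexes. The alpha-ring and beta-ring genes have medians of 236 and 212, the ATPase and non-ATPase genes medians of 146 and 130, and rpn-6.2 stands lowest at 16.7.

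In ok302 against N2, 26 of the 33 proteasome genes fell and none rose. A gene was called here when its edgeR quasi-likelihood test passed an adjusted p of 0.05 (Benjamini-Hochberg over all 17217 genes). Of all tested genes 15.4% were called lower and 8.45% higher in the same comparison. The median log2 fold change was -0.76 over the 33 genes and 0.10 over all genes tested. The 26 called changes lay between -1.14 and -0.64 on the log2 scale. In 27 of the 33 genes every ok302 library lay below every N2 library, as it did in 18.6% of all tested genes.

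The decrease reached every subcomplex. It was called for 7 of 7 alpha-ring genes (median log2 fold change -0.80), 6 of 7 beta-ring genes (-0.94), 5 of 6 ATPase genes (-0.78) and 8 of 13 non-ATPase genes (-0.72). The number of calls depended on single libraries. Without N2 replicate 3, the library with the highest summed proteasome level, 16 genes were called lower, against 9.21% of all tested genes. It was 18 without ok302 replicate 2, against 10.6%, and 21 without N2 replicate 2, against 11.1%. The 16 genes called without N2 replicate 3 were called under all 13 alternative settings tried.

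**Figure D3:**
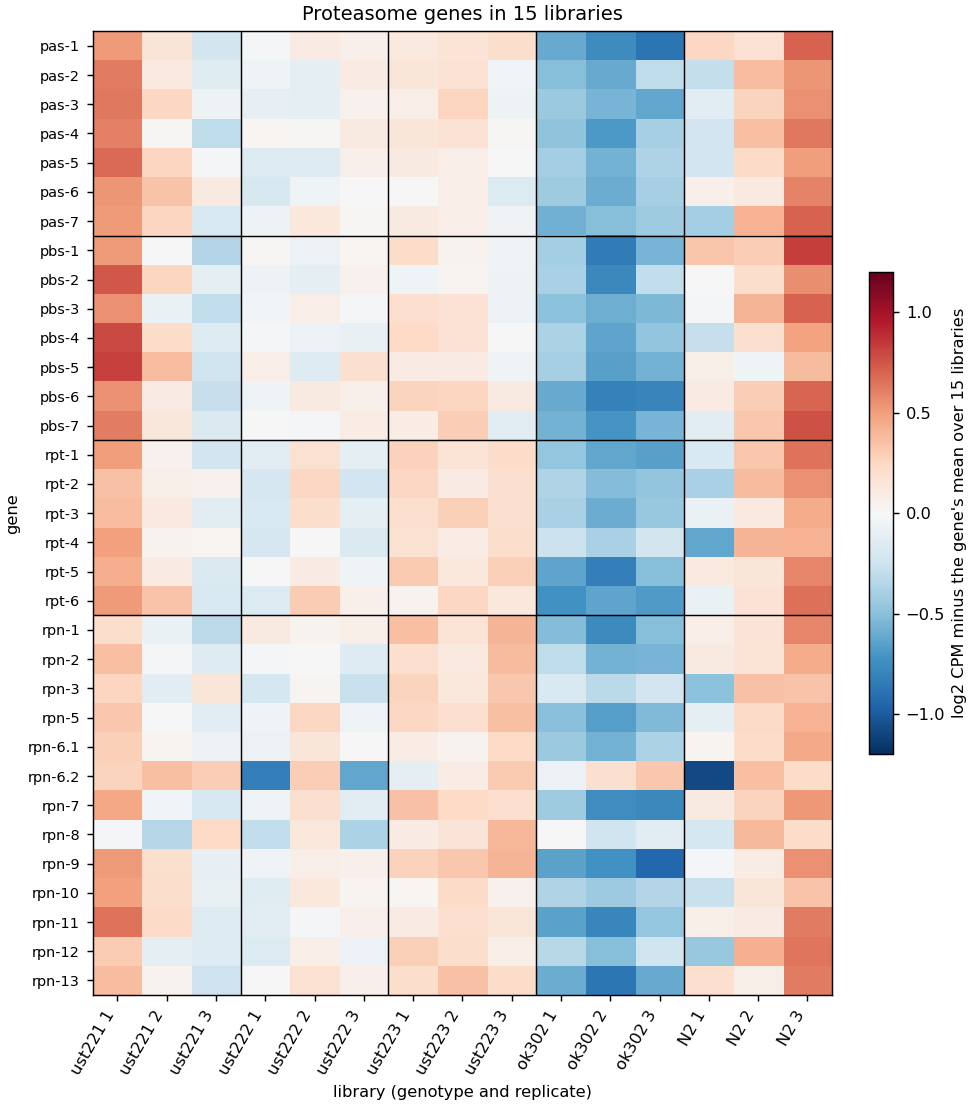
Level of each of the 33 proteasome genes (rows, grouped by subcomplex) in the 15 libraries (columns, ordered ust221, ust222, ust223, ok302 and N2), as log2 CPM minus the mean of that gene over the 15 libraries. The 3 ok302 columns are blue for nearly all genes, and rpn-6.2 differs from the other genes by its 3 dark blue cells, at 12.3 CPM in N2 replicate 1, and 14.8 and 17.005 CPM in ust222 replicates 1 and 3.

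In the alpha ring, pas-1 showed the lowest log2 fold change of all 33 genes. The gene pas-1 (WBGene00003922, chromosome V, 14421566 to 14422618, minus strand in the deposited table) encodes an alpha subunit. It stood at 175, 137 and 106 CPM in ust221, at 122, 132 and 128 CPM in ust222, at 134, 138 and 143 CPM in ust223, at 81.2, 73.2 and 67.2 CPM in ok302, and at 146, 140.0 and 201 CPM in N2. Its ok302 libraries lay below all 12 others. The log2 fold change of ok302 against N2 was -1.14 ± 0.19 (SE, adjusted p = 0.00113), a level of 45.5% of that in N2.

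The most abundant alpha-ring gene per length, pas-3, stood at 384, 294 and 237 CPM in ust221, at 233, 229.8 and 257 CPM in ust222, at 263, 297 and 238 CPM in ust223, at 183, 169 and 161 CPM in ok302, and at 228, 299.9 and 363 CPM in N2. It fell by a smaller amount, with a log2 fold change of -0.80 ± 0.20 (SE, adjusted p = 0.0110). A gene on the opposite strand that overlaps pas-3, use-1, held 13.4% as many counts, and the use of strand in counting is not stated in the labels. In all, 13 of the 33 genes overlap another annotated gene, and for 7 of them that gene held over 10% as many counts. Overlap here means that the spans from gene start to gene end overlap, and shared exons were not checked. The remaining alpha genes pas-2, pas-4, pas-5, pas-6 and pas-7 fell as well, with log2 fold changes of -0.71 ± 0.22, -0.81 ± 0.23, -0.64 ± 0.20, -0.75 ± 0.16 and -0.81 ± 0.24 (SE). The gene pas-7 overlaps lact-2 on the opposite strand, which held 39.3% as many counts and rose in ok302 (log2 fold change 1.35, adjusted p = 0.0125).

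The alpha gene pas-6 stood at 277, 244 and 207 CPM in ust221, at 168, 185 and 192 CPM in ust222, at 192, 204 and 172 CPM in ust223, at 143, 127 and 146 CPM in ok302, and at 201, 209 and 291 CPM in N2. The ok302 values were again the 3 lowest, and the log2 fold change against N2 was -0.75 ± 0.16 (SE, adjusted p = 0.00579).

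Among the catalytic beta subunits, pbs-1 fell most. Its product is the subunit with caspase-like activity. The level of pbs-1 was 324, 227 and 178 CPM in ust221, 229, 217 and 231 CPM in ust222, 264, 234 and 221 CPM in ust223, 171, 127 and 155 CPM in ok302 and 287, 278 and 404 CPM in N2. All ok302 values lay below all others, and the log2 fold change against N2 was -1.10 ± 0.21 (SE, adjusted p = 0.00306).

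The trypsin-like subunit gene pbs-2 stood at 250.0, 178 and 139 CPM in ust221, at 143, 139 and 155 CPM in ust222, at 144, 153 and 143 CPM in ust223, at 114, 87.1 and 121 CPM in ok302, and at 149, 173 and 220.5 CPM in N2. It fell in ok302 with a log2 fold change of -0.75 ± 0.21 (SE, adjusted p = 0.0198) against N2. The chymotrypsin-like subunit gene pbs-5, chosen for full values after they were seen because it completes the catalytic set, stood at 358, 262 and 171 CPM in ust221, at 214, 182 and 232 CPM in ust222, at 218, 216 and 197 CPM in ust223, at 153, 129 and 137 CPM in ok302, and at 213, 195 and 265 CPM in N2. Its log2 fold change in ok302 was -0.68 ± 0.22 (SE, adjusted p = 0.0390), so all 3 catalytic beta genes were called lower.

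Of the structural beta genes, pbs-6 changed most. The gene pbs-6 (WBGene00003952, chromosome III, 8243122 to 8244092, minus strand) stood at 196, 144 and 110.5 CPM in ust221, at 129, 144 and 140.0 CPM in ust222, at 161, 160.0 and 144 CPM in ust223, at 87.8, 76.4 and 77.2 CPM in ok302, and at 143, 164 and 218 CPM in N2. No ok302 library reached any other library, and the log2 fold change against N2 was -1.12 ± 0.20 (SE, adjusted p = 0.00184). The gene pbs-3 stood at 245, 158 and 136 CPM in ust221, at 163, 176 and 164 CPM in ust222, at 192, 188 and 159 CPM in ust223, at 119, 111 and 115 CPM in ok302, and at 166, 222 and 272 CPM in N2, with a log2 fold change of -0.94 ± 0.21 (SE, adjusted p = 0.00744) in ok302. It overlaps ndx-3 on the opposite strand, which held 11.3% as many counts.

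The gene pbs-7 also fell in ok302, with a log2 fold change of -0.97 ± 0.23 (SE, adjusted p = 0.00858). The beta gene that was not called, pbs-4, has the lowest level per length of the ring. It stood at 206, 138 and 106 CPM in ust221, at 117, 113 and 111 CPM in ust222, at 140.3, 134 and 118 CPM in ust223, at 91.3, 76.4 and 85.1 CPM in ok302, and at 97.6, 136 and 165 CPM in N2. Its ok302 libraries lay below its N2 libraries, but its log2 fold change of -0.66 ± 0.23 (SE, adjusted p = 0.0508) missed the threshold.

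The ATPase genes rpt-1, rpt-2, rpt-3, rpt-5 and rpt-6 fell in ok302. These AAA+ ATPases form the ring that unfolds substrates and opens the core. The log2 fold changes were -0.97 ± 0.21 for rpt-6, -0.95 ± 0.18 for rpt-5, -0.88 ± 0.21 for rpt-1, -0.68 ± 0.21 for rpt-2 and -0.66 ± 0.17 for rpt-3, each ± its SE. The ATPase gene with the highest level per length, rpt-2, stood at 283, 232 and 229.9 CPM in ust221, at 193, 264 and 189 CPM in ust222, at 263, 237 and 253 CPM in ust223, at 172, 154 and 159.8 CPM in ok302, and at 169, 288 and 323 CPM in N2. It was called (adjusted p = 0.0337) although ok302 replicate 1 lay above N2 replicate 1.

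The remaining ATPase gene, rpt-4, stood at 220.2, 161 and 159 CPM in ust221, at 136, 157 and 139 CPM in ust222, at 178, 166 and 181 CPM in ust223, at 130.5, 119 and 134 CPM in ok302, and at 102, 208 and 209 CPM in N2. N2 replicate 1 lay below all ok302 libraries, and the log2 fold change of -0.43 ± 0.23 (SE, adjusted p = 0.182) did not pass. The genes nfyc-1 and rpoa-49 overlap rpt-4 on the opposite strand. Of these nfyc-1 held 47.4% as many counts and fell in ok302 (log2 fold change -1.05, adjusted p = 0.00439), and rpoa-49 held 20.4% as many and also fell (-0.69, adjusted p = 0.0179). Reads in any exon sequence that these genes share with rpt-4 cannot be told apart if strand was not used. Whether their exons overlap was not checked. For rpt-6 the overlapping opposite-strand gene glrx-5 held 16.8% as many counts and was not called.

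In the 19S cap, the scaffold gene rpn-1, whose product docks ubiquitin shuttle proteins, stood at 217, 178 and 151 CPM in ust221, at 203, 194 and 198 CPM in ust222, at 241, 211 and 250.2 CPM in ust223, at 132, 111 and 132 CPM in ok302, and at 199, 209.5 and 283 CPM in N2. Its log2 fold change in ok302 was -0.89 ± 0.17 (SE, adjusted p = 0.00267). The other scaffold gene, rpn-2, fell as well, with a log2 fold change of -0.72 ± 0.16 (SE, adjusted p = 0.00643). For both genes every ok302 library lay below every other library of the study.

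The ubiquitin receptor gene rpn-13 changed most among the cap genes. The gene rpn-13 (WBGene00016981, chromosome III, 6340115 to 6341925, minus strand) stood at 211, 168 and 137 CPM in ust221, at 163, 185 and 170.4 CPM in ust222, at 189, 208 and 189 CPM in ust223, at 108, 89.3 and 107 CPM in ok302, and at 187, 171 and 251 CPM in N2. The groups did not overlap, and the log2 fold change in ok302 was -1.002 ± 0.18 (SE, adjusted p = 0.00185). It lies on the same strand as the overlapping gene let-767, which held 214% as many counts and was not called (log2 fold change -0.34, adjusted p = 0.364). The other ubiquitin receptor gene, rpn-10, had a log2 fold change of -0.48 ± 0.18 (SE, adjusted p = 0.0626) in ok302 and was not called, although its ok302 libraries all lay below its N2 libraries.

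The lid gene rpn-9, which encodes a structural PCI-domain subunit, lay next to rpn-13 in size of change. The gene rpn-9 (WBGene00004465, chromosome II, 11237447 to 11239092, minus strand) stood at 195, 157 and 129 CPM in ust221, at 133, 144 and 143 CPM in ust222, at 166, 172 and 182 CPM in ust223, at 87.7, 82.7 and 71.3 CPM in ok302, and at 135, 146 and 201 CPM in N2. Its ok302 values were the 3 lowest of 15, and its log2 fold change against N2 was -0.996 ± 0.18 (SE, adjusted p = 0.00188). The gene rpn-11 encodes the metalloprotease that cuts ubiquitin chains from substrates, and had the highest level per length of the cap. It stood at 296, 221 and 169 CPM in ust221, at 172, 186 and 197 CPM in ust222, at 202, 216 and 208 CPM in ust223, at 121, 109 and 136 CPM in ok302, and at 198, 202 and 291 CPM in N2, with a log2 fold change of -0.91 ± 0.20 (SE, adjusted p = 0.00608). The opposite-strand gene pqn-48 overlaps it and held 19.8% as many counts.

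Among the other lid genes rpn-5, rpn-6.1 and rpn-7 fell, with log2 fold changes of -0.76 ± 0.17, -0.71 ± 0.15 and -0.95 ± 0.19 (SE). The lid genes rpn-3, rpn-8 and rpn-12 were not called. For rpn-12 the log2 fold change was -0.63 ± 0.23 (SE, adjusted p = 0.0617), and the ok302 and N2 libraries overlapped. Values of rpn-3 and rpn-8 are given in full because they moved least with the other subunits, a choice made after the values were seen.

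The PCI-domain subunit gene rpn-3 stood at 268, 204 and 248 CPM in ust221, at 194, 229 and 186 CPM in ust222, at 270.0, 245 and 281 CPM in ust223, at 198, 179.8 and 191 CPM in ok302, and at 159, 287 and 285 CPM in N2. Its log2 fold change in ok302 was -0.36 ± 0.20 (SE, adjusted p = 0.207). The gene rpn-8, whose product is the non-catalytic partner of RPN-11, stood at 143, 113 and 169.6 CPM in ust221, at 117, 157 and 110.3 CPM in ust222, at 154, 160.1 and 189 CPM in ust223, at 144, 122 and 131 CPM in ok302, and at 125, 189 and 167 CPM in N2. Its log2 fold change was -0.28 ± 0.20 (SE, adjusted p = 0.321), with a 95% interval of -0.70 to 0.15. For both genes N2 replicate 1 lay within or below the ok302 values.

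**Figure D4:**
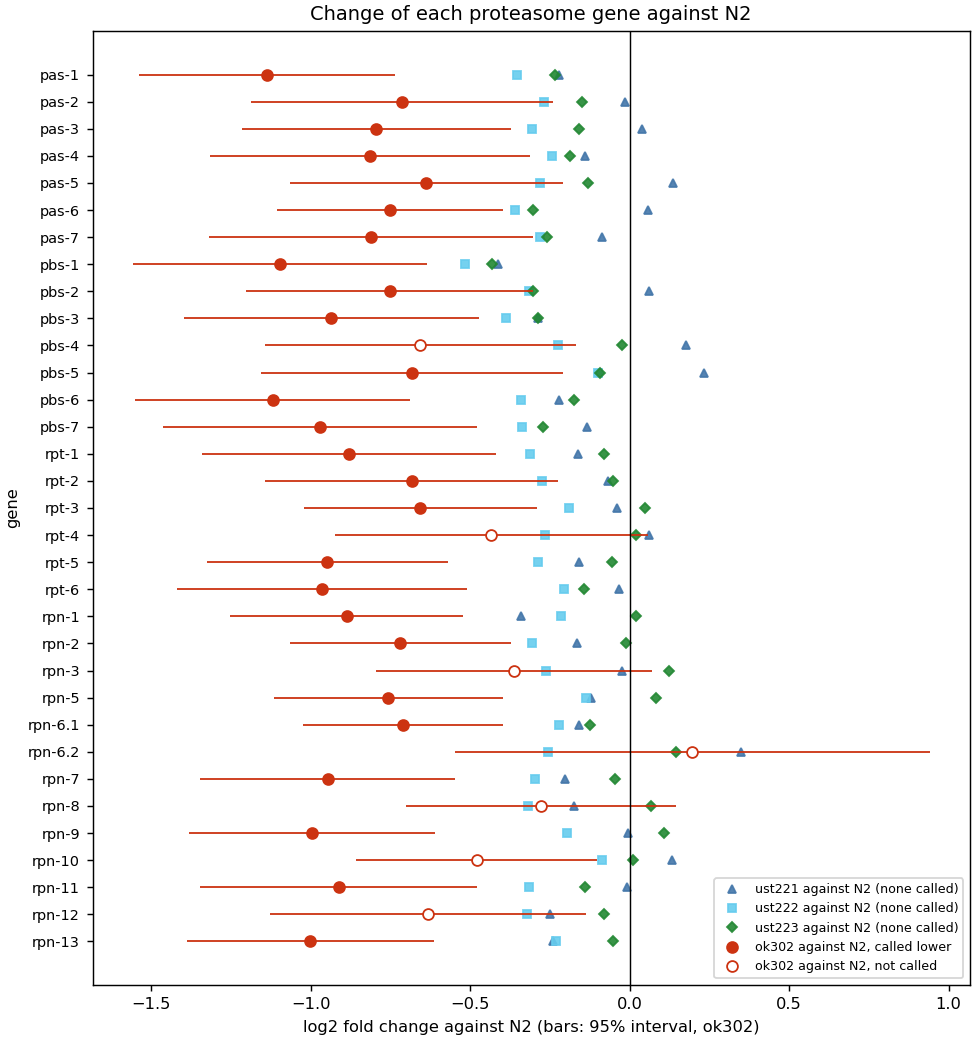
Log2 fold change against N2 (horizontal axis) of each of the 33 proteasome genes (vertical axis) in ust221 (triangles), ust222 (squares), ust223 (diamonds) and ok302 (circles with 95% intervals, filled where called lower). The 26 filled ok302 points lie between -1.14 and -0.64, and no ust allele has a called gene.

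The paralogs rpn-6.1 and rpn-6.2 were lowest in different libraries. RPN-6.1 is the lid subunit whose overexpression is known to raise proteasome activity and extend lifespan in C. elegans. Its gene (WBGene00004462, chromosome III, 6959110 to 6962027, minus strand) stood at 161, 135 and 126 CPM in ust221, at 126, 146 and 133 CPM in ust222, at 141, 136 and 156 CPM in ust223, at 97.3, 89.6 and 102 CPM in ok302, and at 136, 155 and 182 CPM in N2. The ok302 libraries were the 3 lowest, and the log2 fold change was -0.71 ± 0.15 (SE, adjusted p = 0.00393).

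The gene rpn-6.2 (WBGene00010309, chromosome III, 8999828 to 9001973, minus strand) stood at 31.4, 33.6 and 32.1 CPM in ust221, at 14.8, 32.2 and 17.005 CPM in ust222, at 24.1, 27.8 and 32.5 CPM in ust223, at 24.9, 29.8 and 32.7 CPM in ok302, and at 12.3, 33.5 and 30.5 CPM in N2. The 3 lowest libraries were N2 replicate 1 and ust222 replicates 1 and 3. The log2 fold change of ok302 against N2 was 0.20 ± 0.35 (SE, adjusted p = 0.698), with a 95% interval of -0.55 to 0.94. Without N2 replicate 1 it was -0.13 (adjusted p = 0.689), so the sign of this uncalled value turned. The share of reads that match both paralogs is not known from the count table.

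The same 3 libraries were the lowest in sperm markers. The summed level of 25 sperm marker genes was 482, 589 and 323 CPM in ust221, 69.2, 363 and 58.6 CPM in ust222, 288, 325 and 231 CPM in ust223, 616, 497 and 556 CPM in ok302 and 67.1, 439 and 554 CPM in N2. At most 9 of the 25 genes were at 0 counts in a library, and only in these 3 libraries were there more than 1. The part of sperm RNA in the level of rpn-6.2 was not tested. Fitted without these 3 libraries, 31 of the 33 proteasome genes were called lower in ok302 than in N2, and only rpn-6.2 and rpn-8 were not. Calls were also more frequent over all tested genes in that fit, at 23.6% lower and 26.2% higher. In that fit ust222 had 1 library, which was assumed to vary like the others.

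**Figure D5:**
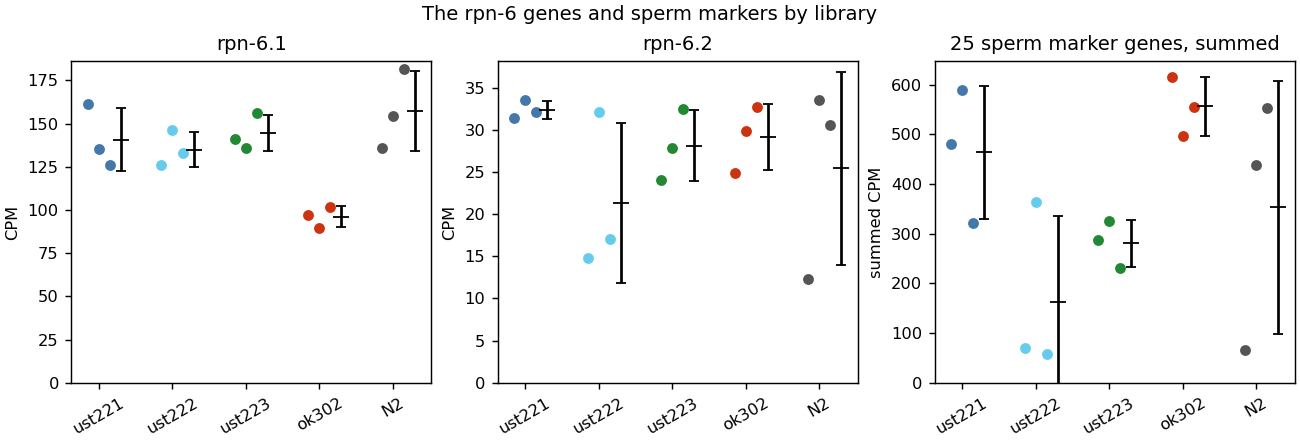
Level in CPM of rpn-6.1, of rpn-6.2 and of 25 sperm marker genes summed (vertical axes) in ust221, ust222, ust223, ok302 and N2, with 1 point per library and the mean and SD of 3 libraries, cut at 0. N2 replicate 1 and ust222 replicates 1 and 3 are lowest for rpn-6.2 (12.3, 14.8 and 17.005 CPM) and for the sperm genes (67.1, 69.2 and 58.6 CPM), but not for rpn-6.1.

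Across the 15 libraries 30 of the 33 genes followed the mean of the other members closely, with Pearson correlations of log2 CPM between 0.820 and 0.983. The correlation was 0.73 for rpn-3, 0.43 for rpn-8 and 0.15 for rpn-6.2. These values describe libraries that fall into 5 genotypes and share the scaling of each library, and they carry no test. Of 16360 other tested genes with a symbol, the 5 closest to the mean of the proteasome genes over the 15 libraries were nars-1 (0.99), which encodes asparaginyl-tRNA synthetase, Y39G10AR.9 (0.98), the dynein light intermediate chain gene dli-1 (0.97), the P granule gene pgl-3 (0.97) and the ubiquitin-like modifier gene ned-8 (0.97). The closest of them, nars-1, stood at 233, 182 and 142 CPM in ust221, at 146, 169.8 and 157 CPM in ust222, at 176, 185 and 172 CPM in ust223, at 101, 99.8 and 103.9 CPM in ok302, and at 139, 177 and 226 CPM in N2. Its ok302 libraries were the 3 lowest, and its log2 fold change against N2 was -0.83. It was picked for its likeness to the proteasome genes in these same libraries, so this decrease is not a separate result.

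The 14 core genes made up 44.9% ± 2.59 of the summed CPM of the 33 genes in ust221, 43.4% ± 2.69 in ust222, 40.9% ± 2.16 in ust223, 42.4% ± 0.341 in ok302 and 44.3% ± 0.792 in N2 (SD, n = 3 each). The ok302 libraries, at 42.1 to 42.8%, lay below the N2 libraries, at 43.6 to 45.2%, and within the range of ust222. The shares of 3 genes, chosen after the values were seen, lay outside those of all other libraries in ok302. The share of pas-1 was 1.87% ± 0.175 in ok302 and 2.42% ± 0.325 in N2, that of pbs-6 was 2.04% ± 0.105 in ok302 and 2.58% ± 0.118 in N2, and that of rpt-4 was 3.23% ± 0.0930 in ok302 and 2.51% ± 0.600 in N2. For pas-1 and pbs-6 all ok302 libraries lay below all 12 others, and for rpt-4 all lay above. These shares were not tested.

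None of the 33 genes was called in any ust allele against N2. In ust221 no proteasome gene passed, against 1.79% of all tested genes, and none had an unadjusted p under 0.05, against 21.2%. No proteasome gene had every ust221 library below every N2 library, which 7.95% of all genes had. The median log2 fold change was -0.09 over the 33 genes, and it was also -0.09 over all genes. The smallest adjusted p belonged to rpn-1, at -0.34 ± 0.17 (SE, adjusted p = 0.263), pbs-1, at -0.41 ± 0.21 (SE, adjusted p = 0.283), and pbs-3, at -0.29 ± 0.21 (SE, adjusted p = 0.456). DESeq2 also called none, against 5.86% of all tested genes called lower and 6.13% higher. Over the 33 genes the 95% intervals in ust221 reached from -0.87 to 1.09. With library totals in place of TMM factors 9 of the 33 genes were called lower, against 5.40% of all tested genes, when the median log2 fold change was -0.35 over the proteasome genes and -0.34 over all genes.

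In ust222 against N2 no proteasome gene was called, and 1 gene of the 17217 was (0.00581%). Unadjusted, 2 members had a p under 0.05, against 7.99% of all genes. DESeq2 called no member, against 0.238% of all genes called lower and 0.273% higher. Over the 33 genes the median log2 fold change was -0.28, and it was -0.17 over all genes. All 33 estimates were below 0. The smallest adjusted p belonged to pbs-1, at -0.52 ± 0.21 (SE, adjusted p = 0.610) with a 95% interval of -0.98 to -0.06, pas-6, at -0.36 ± 0.16 (SE, adjusted p = 0.618), and pas-1, at -0.35 ± 0.18 (SE, adjusted p = 0.637). In 6 genes, pas-1, pas-6, pbs-1, rpt-5, rpn-2 and rpn-11, every ust222 library lay below every N2 library, a pattern that 5.06% of all genes showed.

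In ust223 against N2 no proteasome gene was called, against 1.35% of all genes. DESeq2 called no member, against 1.39% of all genes called lower and 2.85% higher. No member had an unadjusted p under 0.05, against 9.79% of all genes. The median log2 fold change of the members was -0.08, against -0.08 over all genes. The smallest adjusted p belonged to pbs-1, at -0.43 ± 0.21 (SE, adjusted p = 0.556), pas-6, at -0.30 ± 0.16 (SE, adjusted p = 0.630), and pbs-2, at -0.30 ± 0.21 (SE, adjusted p = 0.774). Only pbs-1 had every ust223 library below every N2 library, as 5.2% of all genes did. The 95% intervals over the 33 genes reached from -1.002 to 0.49 in ust222 and from -0.89 to 0.89 in ust223, so decreases of the size called in ok302 lay within the intervals of some genes.

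The difference between each ust allele and ok302 was tested directly. These 3 comparisons share the ok302 libraries, and each has its own values below. In ust221 against ok302, 24 of the 33 genes were higher and none lower, against 10.9% of all genes called higher and 5.85% lower. They were 5 alpha-ring, 6 beta-ring, 4 ATPase and 9 non-ATPase genes. The median log2 fold change was 0.72 over the 33 genes and -0.11 over all genes. The smallest adjusted p belonged to rpn-9, at 0.99 ± 0.18 (SE, adjusted p = 0.00682), and pas-1, at 0.92 ± 0.19 (SE, adjusted p = 0.00952). In 31 of the 33 genes every ust221 library lay above every ok302 library, as in 24.4% of all genes.

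That count of 24 depended on libraries and scaling. It was 2 without ust221 replicate 1, 10 without ust221 replicate 2 and 8 without ok302 replicate 2, and the share of all tested genes called higher in these fits was 3.13, 4.82 and 5.29%. With library totals in place of TMM factors it was 2, against 2.11% of all genes, when the median log2 fold change was 0.22 over the 33 genes and -0.56 over all genes. The TMM factors ranged from 0.688 to 1.02 in ust221, and from 1.08 to 1.19 in ok302.

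In ust222 against ok302, 10 of the 33 genes were higher and none lower, against 7.62% of all genes called higher and 9.25% lower. They were pas-1, pbs-6, rpt-5, rpt-6, rpn-1, rpn-5, rpn-6.1, rpn-7, rpn-9 and rpn-13. Over the 33 genes the median log2 fold change was 0.53, against -0.12 over all genes. The smallest adjusted p belonged to rpn-9, at 0.80 ± 0.18 (SE, adjusted p = 0.0114), and rpn-13, at 0.77 ± 0.18 (SE, adjusted p = 0.0135). In 30 of the 33 genes every ust222 library lay above every ok302 library, as in 18.5% of all genes. The count was 2 without ok302 replicate 2, when 4.097% of all genes were called higher, and 5 and 6 without ust222 replicates 1 and 2, when 4.25 and 6.49% were. It was 27 without ok302 replicate 1 or 3 (13.4 and 13.1% of all genes), 23 without ust222 replicate 3 (14.1%) and 24 with DESeq2 (14.4%).

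In ust223 against ok302, 17 of the 33 genes were higher and none lower, against 12.2% of all genes called higher and 5.58% lower. They were 2 alpha-ring, 3 beta-ring, 4 ATPase and 8 non-ATPase genes. The median log2 fold change was 0.64 over the 33 genes and -0.16 over all genes. The smallest adjusted p belonged to rpn-9, at 1.10 ± 0.18 (SE, adjusted p = 0.00186), and rpn-1, at 0.91 ± 0.17 (SE, adjusted p = 0.00356). In 32 of the 33 genes, all but rpn-6.2, every ust223 library lay above every ok302 library, as in 28.8% of all genes. The count was 9 when ok302 replicate 2 was left out, against 7.28% of all genes, and 10 when ust223 replicate 3 was, against 6.34%. In a fit of the 6 libraries compared it was 32, when 26.1% of all genes were called higher and 28.2% lower.

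Other genes of the pathway were taken from 4 lists. Of 8 genes listed as proteasome-associated or assembly factors, 6 fell in ok302 against N2 and none rose (median log2 fold change -0.74). In that comparison 15.4% of all tested genes were called lower and 8.45% higher. The deubiquitinase gene usp-14, whose product binds the cap, stood at 182, 153 and 153 CPM in ust221, at 128, 146 and 127 CPM in ust222, at 189.6, 181 and 182 CPM in ust223, at 96.7, 89.3 and 99.6 CPM in ok302, and at 131, 209.7 and 207 CPM in N2, and its log2 fold change was -0.94 ± 0.17 (SE, adjusted p = 0.00186). The gene psme-3, which encodes an alternative activator of the core, had the largest decrease of the list, at -1.22 ± 0.25 (SE, adjusted p = 0.00375). The genes aip-1, dss-1, ecps-1 and psmd-9 also fell, and ecps-2 and the deubiquitinase gene ubh-4 were not called, at -0.52 ± 0.43 and -0.21 ± 0.32.

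Of 6 genes on the route that activates SKN-1A, 4 fell in ok302 and none rose (median -0.61), against 15.4% of all genes called lower. The ER ubiquitin ligase gene sel-11 stood at 128, 120.0 and 106 CPM in ust221, at 98.3, 111 and 100.004 CPM in ust222, at 119.8, 120.0 and 145 CPM in ust223, at 78.0, 73.0 and 75.1 CPM in ok302, and at 121, 136 and 162 CPM in N2, with a log2 fold change of -0.89 ± 0.14 (SE, adjusted p = 0.00102). The Derlin gene cup-2 fell, with a log2 fold change of -0.74 ± 0.15 (SE, adjusted p = 0.00403), as did the protease gene ddi-1, at -0.84 ± 0.19 (SE, adjusted p = 0.00635), and the N-glycanase gene png-1, at -0.49 ± 0.14 (SE, adjusted p = 0.0207). The transcription factor gene itself, skn-1, was not called, at -0.42 ± 0.15 (SE, adjusted p = 0.0640), nor was sel-1, at -0.23 ± 0.21. The count table gives 1 value for skn-1, which does not separate its isoforms.

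Of 8 genes of the CDC-48 unfoldase and its cofactors, 4 fell and none rose (median -0.68): cdc-48.1, at -0.89 ± 0.18 (SE, adjusted p = 0.00410), cdc-48.2, ufd-1 and ufd-3. CDC-48 is the AAA+ ATPase that extracts ubiquitinated proteins and hands them to the proteasome. Of 6 genes for ubiquitin supply and shuttles 3 fell and none rose (median -0.40): the polyubiquitin gene ubq-1, at -0.62 ± 0.16 (SE, adjusted p = 0.0124), the ubiquitin-activating enzyme gene uba-1, at -0.49 ± 0.16 (SE, adjusted p = 0.0442), and the shuttle gene rad-23, at -0.84 ± 0.22 (SE, adjusted p = 0.0140). The ubiquitin-ribosomal fusion gene ubq-2 was not called, at -0.09 ± 0.25, nor was the autophagy receptor gene sqst-1, at 0.39 ± 0.44. Over all tested genes, 15.4% were called lower in ok302 against N2.

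None of the 28 genes of these 4 lists was called in any ust allele against N2 by the same edgeR test. That test called 1.79, 0.00581 and 1.35% of all tested genes in ust221, ust222 and ust223. Of the 28 genes, 2 in ust221, 2 in ust222 and 1 in ust223 had an unadjusted p under 0.05, and DESeq2 called 1, ddi-1, in ust221. The unadjusted shares over all tested genes were 21.2, 7.99 and 9.79%. In ust221 DESeq2 called 5.86% of all genes lower and 6.13% higher. Against ok302, ust221 had 4 of the 8 associated factors higher, 3 of the 6 SKN-1A route genes, 2 of the 8 CDC-48 genes and none of the 6 ubiquitin genes. In ust222 against ok302 these counts were 2, 1, 1 and 0, and in ust223 against ok302 they were 5, 5, 4 and 3. No gene of the lists was lower. Over all tested genes, 10.9, 7.62 and 12.2% were called higher in ust221, ust222 and ust223 against ok302. In ust223 the smallest adjusted p belonged to the proteasome adaptor gene ecps-1, at 1.24 ± 0.21 (SE, adjusted p = 0.00201), and ubq-1, at 0.91 ± 0.16 (SE, adjusted p = 0.00242). In ust221 and ust222 it was also ecps-1, at 1.14 ± 0.21 (SE, adjusted p = 0.00667) and 0.94 ± 0.20 (SE, adjusted p = 0.0102).

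Another large housekeeping complex served for comparison. Of 78 genes of cytosolic ribosomal proteins, 1 fell in ok302 against N2 and none rose, with a median log2 fold change of -0.14. In that comparison 15.4% of all tested genes were called lower and 8.45% higher. Their medians in ust221, ust222 and ust223 against N2 were 0.46, 0.05 and -0.45. None was called in these alleles by edgeR, with 10, 1 and 14 genes at an unadjusted p under 0.05 and 0, 0 and 3 called by DESeq2. The edgeR test called 1.79, 0.00581 and 1.35% of all tested genes in the 3 alleles. The unadjusted shares over all tested genes were 21.2, 7.99 and 9.79%. In ust223 DESeq2 called 1.39% of all genes lower and 2.85% higher. The difference between the proteasome and ribosomal lists was not tested.

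Markers of the oocyte and germ line fell with the proteasome genes in ok302, where 15.4% of all tested genes fell and 8.45% rose. In ok302 against N2, 19 of 21 oocyte markers fell and none rose (median log2 fold change -1.44), and their summed level was 5868 to 7821 CPM in ok302 and 13209.6 to 18209.8 CPM in N2. Of 14 germ line and meiosis markers 9 fell (median -1.01), with summed levels of 1114 to 1299 CPM in ok302 and 1725 to 3357 CPM in N2. No marker of these 2 lists was at 0 in any library. In ok302 3 of 22 molting and larval cuticle markers rose (median 1.15), with summed levels of 1526 to 1884 CPM in ok302 and 156 to 2187 CPM in N2, as did 5 of 25 sperm markers (median 1.30).

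Few somatic markers were called in ok302, where 8.45% of all tested genes rose and 15.4% fell. The hypodermis list shares rol-6, dpy-7 and bli-1 with the molting and larval cuticle list, so these lists are not independent. Of 9 intestine markers 1 rose (median 0.77), of 11 muscle markers 2 rose (0.15), of 12 neuron markers 1 rose and 1 fell (0.19), and of 9 hypodermis markers 1 rose and 2 fell (0.15). The part of oocyte, germ line and larval RNA in the levels of the proteasome genes was not tested.

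In the ust alleles summed oocyte markers were 9365 to 12727 CPM in ust221, 10959 to 12017 CPM in ust222 and 14499 to 17071 CPM in ust223. In ust221 against N2, 7 of 21 oocyte markers fell (median -0.64), while the median of the proteasome genes was -0.09. Of 14 germ line and meiosis markers 1 fell there (median -0.02), and 0.761% of all tested genes were called lower. Against ok302, oocyte markers were higher for 14 of 21 genes in ust221, 18 in ust222 and 19 in ust223. Germ line and meiosis markers were higher for 10, 5 and 9 of 14 genes, against 10.9, 7.62 and 12.2% of all tested genes.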

How the data were processed

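RNA was sequenced in 15 libraries, 3 for each of 5 genotypes, grouped by the genotype in the sample titles. The deposited table holds unnormalised counts of reads for each gene, with gene coordinates and a gene length. Per the submitters' processing notes, HISAT2 2.0.5 was among the authors' tools. Not given in the sources used here are the counting program, its handling of strand and of reads that match several genes, and the genome build. Coordinates are those of the deposited table, without a build name: 12 of the 33 members have the same start and end in the reference annotation at hand (Ensembl release 115). Gene symbols came from a table of WormBase names, which held all 33 members.

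The test was edgeR 4.0.16 (R 4.3.3) with filterByExpr by genotype, TMM scaling (trimmed mean of M values), glmQLFit on all 15 libraries with 1 mean per genotype, glmQLFTest and Benjamini-Hochberg adjustment over 17217 genes, at a threshold of 0.05. The SE was taken from the log2 fold change and the square root of F. Values after ± are SD for levels and SE for log2 fold changes. Levels per length divide CPM by the deposited gene length, which equals the exon length of the reference annotation for 68.3% of genes. The common biological coefficient of variation was 0.477. The test was also run on simulated data with lower coefficients of variation than this value, so that run does not measure its accuracy here. No libraries were identical within a genotype: the chi-square per gene between replicates was 13.5 or more.

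Members and gene lists were chosen with earlier results of these data known. Values in every library are given for the 3 members with the smallest adjusted p in each comparison with N2, the first 2 in each comparison with ok302, and the highest and lowest member per length of each subcomplex. Other pathway genes are named, at most 6 per comparison, by adjusted p, with others of the lists given to complete them. Alternatives were DESeq2 1.42.0, DESeq2 size factors, library totals, no filter, the 6 libraries of a comparison, a replicate block, omission of 3 libraries low in sperm genes and of each library in turn. Replicate numbers were not used as pairs in the main test. Of 30 same-numbered pairs, 7 had a correlation of deviations over 0.1, in a range from -0.640 to 0.785. Both ends of this range were pairs of N2 with ust222. Differently numbered pairs reached similar values: N2 replicate 1 had -0.847 with ust222 replicate 2 and 0.780 with ust222 replicate 3. The 7 pairs over 0.1 included all same-numbered pairs of ust221 with ust223 (0.138, 0.254 and 0.318). No promoter, UTR or protein sequence was used here.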

Additional observations from a re-analysis of the deposited data

How the results depend on the processing

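In ok302 against N2 the direction held under all 13 alternatives, with 16 to 31 of the 33 proteasome genes called lower against 26, while the share of all tested genes called lower ran from 9.21 to 23.6%, against 15.4%. Leaving out 1 library gave the extremes, 16 without N2 replicate 3 and 31 without N2 replicate 1, and the other settings gave 22 to 31. Relative to the median of all genes, the median of the proteasome genes lay between -1.30 and -0.66 over these settings. The 16 genes called in all of them were pas-1, pas-6, pbs-1, pbs-3, pbs-6, pbs-7, rpt-5, rpt-6, rpn-1, rpn-2, rpn-5, rpn-6.1, rpn-7, rpn-9, rpn-11 and rpn-13. Only rpn-6.2 changed sign, to -0.13 without the 3 libraries low in sperm genes and to -0.13 without N2 replicate 1, and leaving out 1 library gave it -0.13 to 0.44, never called. Over the 33 genes and 13 alternatives of this comparison, 31 calls were lost and 26 gained.

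Against N2 the ust alleles kept 0 called members, leaving out 1 library included (0 to 0), except in ust221 with library totals. There 9 were called (5.40% of all genes), and the median of all genes also moved to -0.34. In several settings almost no gene was called, so 0 members says little there. With the 6 libraries compared, 1 gene of 15020 was called in ust221 and 0 in ust222. Other fits called more, such as 4.71% of all genes lower and 3.71% higher in ust221 without N2 replicate 1. Without ust222 replicate 2, 3.21% were lower and 0.226% higher in ust222. Against ok302 the counts moved more, and the share of all tested genes called higher is given in parentheses beside each. For ust221 the count of 24 (10.9%) became 2 with library totals (2.11%) and ranged from 2 to 27 when 1 library was left out (3.13 to 11.496%). For ust222 the count of 10 (7.62%) became 24 with DESeq2 (14.4%), 23 with DESeq2 size factors (11.8%), 17 with library totals (7.12%), 24 without the filter (8.54%), 20 with 6 libraries (7.35%), 18 without the 3 libraries low in sperm genes (16.2%), and 2 to 27 with 1 library left out (4.097 to 14.1%). For ust223 the count of 17 (12.2%) became 32 with 6 libraries (26.1%), 31 without the 3 libraries low in sperm genes (22.7%), and 9 to 23 with 1 library left out (6.34 to 13.4%). No member was called lower against ok302 in any of these settings. The cause of these shifts was not tested.

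Replicate numbers were not used as pairs in the main test. With the number as a block, 23 proteasome genes were called lower in ok302 than in N2 (13.7% of all genes). None was called in any ust allele against N2. Of all genes, that fit called 0.348% lower and 0.592% higher in ust221, and 0.192% lower and 0.982% higher in ust223. In ust222 it called 1 gene. Against ok302, 19, 9 and 14 proteasome genes were higher in ust221, ust222 and ust223 (9.17, 6.54 and 10.8% of all genes). With 3 libraries per genotype and a median SE of 0.20, changes smaller than those called in ok302 were often not detectable. Mean levels per length in N2 moved by less than 1 SD with reference exon lengths. Averaged over the genotypes, pas-3 moved from 243.9 to 286.5 CPM per kilobase and pbs-1 from 284.3 to 287.7. With reference lengths pbs-1 was thus only slightly above pas-3 in this average.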
